A study of Mus musculus with 18 samples.

Results

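The 6 genes described here are Ttr, Enpp2, Kl, Otx2, Col8a1 and 1500015O10Rik, a set that marks the epithelium of the choroid plexus, in RNA libraries of mouse hippocampus. They were taken by gene symbol out of 11738 symbols in 3 deposited count tables, and they were chosen by values measured here, their lower counts in the microRNA deletion and, for Enpp2, also its lower level in tTA::miR132. All 6 have a row in the deletion table (10541 symbols) and in the miR-132 table (10799 symbols), and all 6 passed the filter on low counts there. Ttr, Enpp2 and Kl have a row in the miR-212 table (4618 symbols), and these 3 passed its filter.

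The study altered miR-132 and miR-212, a pair of microRNAs made from 1 locus, in C57BL/6 mice, and sequenced polyadenylated RNA of both hippocampi. The altered genotypes were CaMKII-Cre::miR-132/212f/f (called cKO, in which Cre recombinase removes the floxed locus), tTA::miR132 and tTA::miR212 (transgenic mice carrying the tetracycline transactivator tTA and a microRNA transgene). Each had its own nontransgenic controls, so an effect of Cre or tTA and an effect of the microRNA cannot be told apart. The CaMKII promoter is active in excitatory neurons of the forebrain, and the labels name no promoter for tTA. They give no age, and according to the design text cDNA of 6 animals went into 3 pools per group. The libraries described are 2 each of cKO, tTA::miR132 and their controls, and 3 each of tTA::miR212 and its controls, numbered as in the column names. For cKO, tTA::miR132 and the controls of each, 1 more library is labelled and was not analysed here, and nothing ties a pool to named animals, so p-values measure the spread between these libraries. The targeted microRNA genes Mir132 and Mir212 have 0 rows in the tables, so the genotypes were not checked by them.

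The choroid plexus is a folded epithelium in the brain's ventricles that secretes cerebrospinal fluid. It lies against the hippocampus in the lateral ventricle, and a hippocampal dissection can carry some of it. Its cells make and secrete transthyretin (Ttr), the carrier of thyroid hormone and of retinol-binding protein. They also secrete autotaxin (Enpp2), the enzyme that makes lysophosphatidic acid, and carry klotho (Kl), a membrane protein that acts as co-receptor for FGF23 and is also shed. OTX2 is a homeodomain transcription factor that the choroid plexus needs in order to form and persist in mice. Col8a1 encodes a short-chain collagen, and 1500015O10Rik, listed by RefSeq as Ecrg4, encodes a secreted peptide precursor.

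The 2 microRNAs that the study altered share a seed, the stretch that pairs with target messages. Both are shown so that the seed, in capitals (bases 2 to 8), can be compared. The sequences are RefSeq's, read on chromosome 11 of GRCm38.p6.
mmu-miR-132-3p: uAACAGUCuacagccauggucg
mmu-miR-212-3p: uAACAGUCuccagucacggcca
Of their 22 positions, 17 are identical. The match to this seed in a message, GACTGTT, was found 0 times in the longest annotated 3′ UTR of each of the 6 genes. The 6 UTRs are 172 bases (1500015O10Rik) to 2653 bases (Col8a1) long, and 1994 of 19915 genes (10%) hold the match in theirs. No match says only that these letters are not in these stretches.

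RefSeq's table of regions before gene starts (GRCm38.p6) holds 7 windows of 250 bases for 4 of the 6 genes, since Otx2 has 4 starts. The windows differ in base composition, and those of Kl and of 1 Otx2 start are shown for that contrast. Each was found once in mm9, where it overlaps no annotated exon, at chr5:151754932-151755181 for Kl on the plus strand and at chr14:49287320-49287569 for Otx2 on the minus strand.
Kl: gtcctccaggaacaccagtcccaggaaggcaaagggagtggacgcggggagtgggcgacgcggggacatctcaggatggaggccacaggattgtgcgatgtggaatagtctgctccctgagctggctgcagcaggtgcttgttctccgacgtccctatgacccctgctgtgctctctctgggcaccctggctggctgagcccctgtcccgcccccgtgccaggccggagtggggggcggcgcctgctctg
Otx2: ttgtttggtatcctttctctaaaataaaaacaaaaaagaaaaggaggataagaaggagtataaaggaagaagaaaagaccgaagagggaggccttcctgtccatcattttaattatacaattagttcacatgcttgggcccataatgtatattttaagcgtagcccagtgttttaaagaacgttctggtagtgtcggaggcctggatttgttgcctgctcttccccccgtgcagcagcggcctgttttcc
G and C make up 66.8% of the Kl window and 42% of this Otx2 window, against a median of 52.4% over all 32851 windows in the table. The windows of the other Otx2 starts overlap annotated exons in mm9 and are not shown. They stand at 49.2%, 48.4% and 53.6%, so the Otx2 window shown is the lowest of the 4 and the contrast depends on the start. The windows of Col8a1 and 1500015O10Rik stand at 60.8% and 48.4%. The core letters bound by OTX proteins, TAATCC, searched on both strands (GGATTA on the other), are in 1 of the 7 windows, that of another Otx2 start. Of all windows, 6.25% hold them, and a match or its absence is a description of these letters only.

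In the files' build, mm9, Ttr lies on the plus strand at chr18:20823751-20832825 with 4 exons, and Enpp2 on the minus strand at chr15:54670453-54751701 with 26 exons. Kl (plus strand, 5 exons) is at chr5:151755182-151796386, and Otx2 (minus strand, 4 exons) at chr14:49277859-49282547. Col8a1 (minus strand, 4 exons) is at chr16:57624369-57754850 and 1500015O10Rik (plus strand, 4 exons) at chr1:43787447-43799409. The 6 genes thus lie on 6 chromosomes. Exon numbers are those of the longest protein-coding transcript in GENCODE vM1.

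The control libraries of the deletion table showed the order of levels among the 6 genes. As counts per 1000000 library counts (CPM) and per kilobase of transcript, Ttr averaged 3745, Enpp2 345, 1500015O10Rik 98.6, Kl 11.2, and Otx2 and Col8a1 5.77 each. Ttr was thus the most abundant of the 6. In CPM, not divided by length, it made up 79.2% and 75.1% of their summed level in control libraries 1 and 2. Other genes of the choroid plexus epithelium were detected beside them. Of 40 further markers of this epithelium, 26 have a row in the deletion table, and the ion channel subunit gene Kcne2 had 12.9 and 33.7 CPM and the folate receptor gene Folr1 17.7 and 17.8 CPM in these control libraries.

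Library totals were 8190899 to 9702801 counts in the deletion table, 8301385 to 14772907 in the miR-132 table and 1299369 to 1544923 over the rows kept in the miR-212 table. One library stood apart in the deletion table. Library 1 of cKO had 0 counts for 1047 of 10541 genes (9.93%), against 120 in library 2 of cKO and 90 and 73 in the control libraries. Values for cKO are therefore given for each library, and fold changes and list medians with and without library 1.

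Ttr, the transthyretin gene, had 496 and 1682 CPM in cKO libraries 1 and 2, against 4351 and 4779 CPM in their controls. Both cKO libraries lay below both control libraries, and library 1 lay lowest. The log2 fold change was -2.06 (SE 0.52), -1.45 without cKO library 1 and -3.13 without cKO library 2. In a piece of tissue, fewer choroid plexus cells and less of a message per cell cannot be told apart.

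Enpp2, the autotaxin gene, had 454 and 756 CPM in cKO, against 997 and 1350 CPM in controls. Again both cKO libraries lay below both controls, with a smaller gap than for Ttr. Its log2 fold change was -0.94 (SE 0.28), -0.65 without cKO library 1 and -1.30 without cKO library 2. The proportion of the 2 messages differed between libraries: there were 91.4 and 45.0 Enpp2 counts per 100 Ttr counts in cKO, against 22.9 and 28.2 in controls. These are RNA counts of whole tissue, and the cells they came from were not tested.

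Kl, the klotho gene, had 10.2 and 17.0 CPM in cKO, against 32.6 and 81.4 CPM in controls. The groups did not overlap, and the controls differed 2.5-fold between themselves. Kl had a log2 fold change of -2.05 (SE 0.73), -1.75 without cKO library 1 and -1.24 without control library 2.

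Otx2, the transcription factor gene, had 0 counts in both cKO libraries, against 122 and 110 counts (12.9 and 13.4 CPM) in controls. With a floor of 3 counts over the group, Otx2 was at least 83.9-fold lower in cKO than in controls, at least 42.6-fold lower without cKO library 1 and at least 41.3-fold lower without cKO library 2. The floor of 3 counts equals 0.319 and 0.309 CPM in cKO libraries 1 and 2. The exact 95% upper limits for a count of 0 are 0.392 and 0.38 CPM, for counting error only. Zeros at this level were frequent in cKO library 1 and rare in library 2: of 248 genes with 100 to 150 counts in each control library, 69 (27.8%) were at 0 in cKO library 1 and 1 (0.403%) in cKO library 2. That 1 gene was Otx2, and 11 of 10541 genes were at 0 in both cKO libraries. Otx2 was chosen with its low cKO counts known, so nothing is read from its place among these genes.

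Col8a1, the collagen gene, had 2.34 and 4.12 CPM in cKO, against 21.8 and 37.1 CPM in controls, without overlap. Its log2 fold change was -3.17 (SE 1.21). The peptide precursor gene 1500015O10Rik had 28.8 and 27.8 CPM in cKO, against 77.2 and 100.7 CPM in controls. Its 2 cKO libraries lay close together, unlike those of Ttr, and its log2 fold change was -1.63 (SE 0.45). Without cKO library 1, Col8a1 was at -2.84 and 1500015O10Rik at -1.69.

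**Figure D1:**
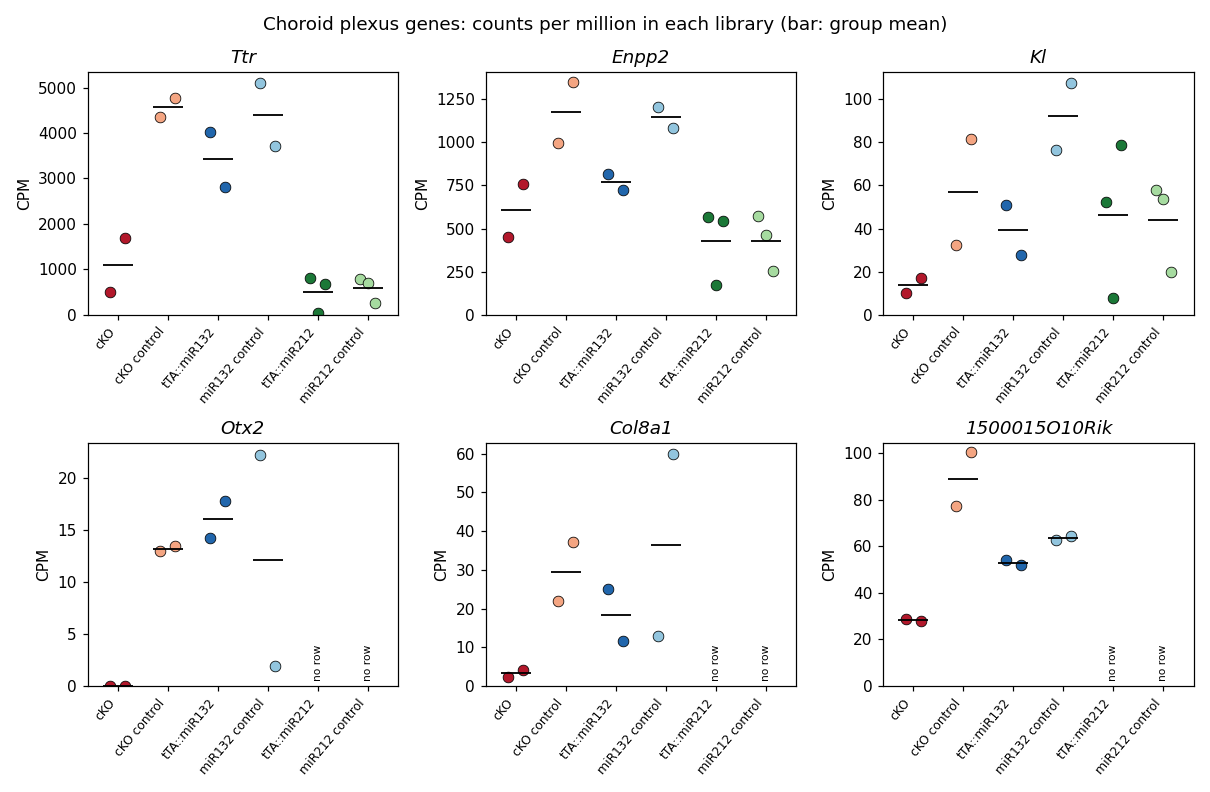
CPM values (linear axes from 0) of the 6 genes in each library (points, 2 or 3 per group) with the group mean (bar), by group. In cKO all points lie below both control points for each gene, Otx2 at 0, and in the panel of Ttr 1 tTA::miR212 library is at 40.1 CPM.

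Each of the 6 genes was thus lower in both cKO libraries than in both controls. Of the 10487 genes tested, 18% had groups that did not overlap and were lower in cKO, and nothing is read from that comparison because this contrast chose the genes. Their median log2 fold change was -2.06, against -0.03 over all genes tested, and it was the same with Otx2 at its bound. For the 10487 genes, 0 passed an adjusted p of 0.05 by edgeR, 88 (0.839%) had an unadjusted p under 0.05, and DESeq2 called 5 (0.0477%).

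Further markers of the choroid plexus epithelium are not among the 6, although the list was drawn up with earlier results known. Of the 26 with a row, 25 had a log2 fold change below 0 in cKO (52.1% of all genes tested did), 0 passed the test and the median was -1.45. Without cKO library 1, 24 of 26 were below 0 with a median of -0.54, and all genes tested had a median of -0.01. Without control library 2 it was 20 of 26 with a median of -0.78, and without cKO library 2, which leaves the library with many zeros, 25 of 26 were below 0. Of these 26 genes, 13 were at 0 in cKO library 1 and 0 were in cKO library 2. Taken alone, cKO library 2 lay below both controls for 16 of the 26 (61.5%), against 33.1% of all genes tested.

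The 5 genes of this list with the highest levels were Prlr, Igf2, Igfbp2, Cab39l and Slc31a1. Prlr, the prolactin receptor gene, had 0 and 43.5 CPM in cKO, against 57.8 and 100.2 CPM in controls. Igfbp2, which encodes an IGF-binding protein, had 51.4 and 66.3 CPM in cKO, against 86.3 and 98.4 CPM in controls (log2 fold change -0.63, SE 0.37, and -0.49 without cKO library 1). Both lay below the controls in each cKO library. Igf2, a growth factor gene that the choroid plexus shares with the meninges, overlapped, with 43.3 and 51.9 CPM in cKO and 40.7 and 86.3 CPM in controls. Cab39l had 34.1 and 49.4 CPM in cKO, against 58.8 and 57.5 CPM in controls, and the copper transporter gene Slc31a1 overlapped (49.0 and 45.7 CPM in cKO, 40.8 and 65.0 CPM in controls).

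Lists of other cell types gave these values in the same libraries. The hippocampal neuron list summed to 10440 and 8739 CPM in cKO, against 7816 and 8545 CPM in controls. Its sums were higher in cKO without overlap, with 2 of 10 genes below 0 and a median of 0.13. Vessel genes summed to 202.9 and 197.8 CPM in cKO, against 184.9 and 154.9 CPM in controls, also higher without overlap. The astrocyte list summed to 5601 and 6241 CPM in cKO, against 6074 and 6010 CPM in controls, with 3 of 8 genes below 0 and a median of 0.03. Myelin genes had 5 of 10 below 0 and a median of -0.06, ependymal genes 4 of 6 and -0.65, meningeal genes 6 of 9 and -0.22, and vessel genes 2 of 8 and 0.40. Several of these moved without cKO library 1: myelin genes then had 1 of 10 below 0 and a median of 0.14, ependymal genes 4 of 6 and -0.11, meningeal genes 4 of 9 and 0.17, vessel genes 2 of 8 and 0.61, astrocyte genes 2 of 8 and 0.05, and neuron genes 3 of 10 and 0.11. Thalamic genes summed to 66.6 and 82.2 CPM in cKO, against 187 and 102 CPM in controls, without overlap, with 3 of 4 genes below 0 and a median of -0.98, or -0.96 without cKO library 1. The pair of haemoglobin genes with a row summed to 6.91 and 3.40 CPM in cKO, against 31.5 and 24.8 CPM in controls, also without overlap, with 2 of 2 genes below 0 and a median of -2.45, or -3.05 without cKO library 1. No gene of any list passed the test, and the part of these differences in the lower choroid plexus genes was not tested.

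**Figure D2:**
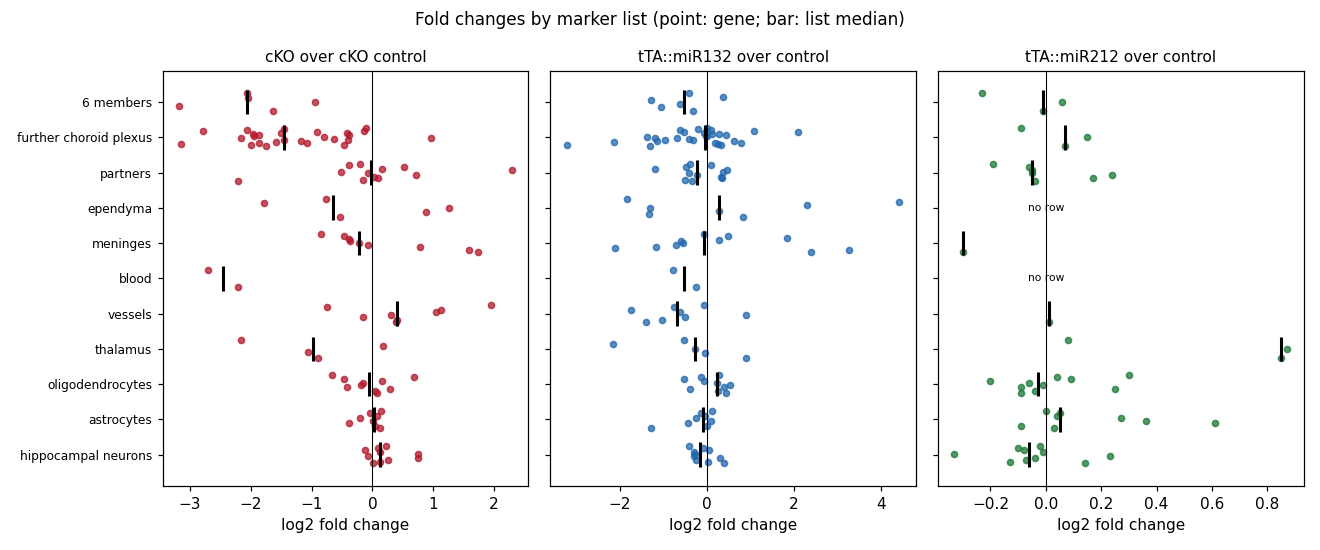
Log2 fold changes (edgeR, x axis, scaled separately in each panel) of the genes of each list (points) with the list's median (bar), for cKO, tTA::miR132 and tTA::miR212 against their controls. The further choroid plexus genes have a median of -1.45 in cKO and -0.03 in tTA::miR132; 2 genes in cKO and 1 in tTA::miR132, with 0 counts in a whole group, are not drawn.

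The partners of these proteins, receptors, carriers and related genes, lay on both sides of 0 in cKO. Of 23 listed, 12 have a row in the deletion table, of which 6 were below 0 and 6 above, 0 passed and the median was -0.03. Without cKO library 1, 9 of 12 were below 0 with a median of -0.21, and cKO library 2 taken alone lay below both controls for 7 of the 12 (58.3%), a share close to that of the further choroid plexus genes. Lpar1, a receptor for lysophosphatidic acid, had 84.4 and 74.1 CPM in cKO and 94.8 and 75.7 CPM in controls. Fgfr1, which binds klotho, had 156 and 159 CPM in cKO and 118 and 183 CPM in controls. The thyroid hormone receptor genes Thra and Thrb had log2 fold changes of -0.38 (SE 0.48) and -0.20 (SE 0.33), and of 0.17 and -0.20 without cKO library 1. In tTA::miR132, 7 of 13 partners were below 0 with a median of -0.21, and in tTA::miR212 5 of 7 with a median of -0.05, and 0 passed in either.

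In tTA::miR132, Ttr, Enpp2 and Kl had lower mean levels than in controls, and none of the 5 genes other than Enpp2 passed edgeR's test. Enpp2 was chosen with its lower level in this comparison known, so its values are given with no test. Ttr had 4028 and 2822 CPM in tTA::miR132 libraries 1 and 2, against 5094 and 3720 CPM in their controls. The groups overlapped, since transgenic library 1 exceeded control library 2. Ttr had a log2 fold change of -0.40 with a standard error of 0.17 (adjusted p = 0.997 by edgeR).

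Enpp2 had 814 and 723 CPM in tTA::miR132, against 1203 and 1086 CPM in controls. Both transgenic libraries lay below both controls, and each pair agreed within 1.13-fold. The log2 fold change was -0.62 (SE 0.15). Kl had 51.0 and 27.8 CPM in tTA::miR132, against 76.4 and 107.7 CPM in controls, without overlap, and a log2 fold change of -1.27 (SE 0.47, edgeR adjusted p = 0.997).

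The less abundant members were uneven among the libraries. Otx2 had 14.2 and 17.8 CPM in tTA::miR132, against 22.2 and 1.93 CPM in controls. Control library 2 was low, so the groups overlapped, and the log2 fold change of 0.38 (SE 1.22, edgeR adjusted p = 0.997) turned to -0.49 without it. Col8a1 had 25.1 and 11.6 CPM in tTA::miR132, against 12.9 and 59.9 CPM in controls. Here control library 2 was high, and the log2 fold change of -1.04 (SE 0.83, edgeR adjusted p = 0.997) turned to 0.50 without it. In that library 485 genes (4.49%) were at 0, against 92 to 262 in the other 3 libraries.

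For 1500015O10Rik there were 54.0 and 52.1 CPM in tTA::miR132, against 62.9 and 64.6 CPM in controls. The groups did not overlap, and the difference was small (log2 fold change -0.31, SE 0.43, adjusted p = 0.997 by edgeR). Over the 6 genes, 5 were below 0 and 1 above, and 50.1% of all 10734 genes tested were below 0. Lower without overlap were 3 (Enpp2, Kl and 1500015O10Rik), as were 14.3% of all genes tested. Enpp2 is in both counts and was chosen by this comparison, so nothing is read from them. By edgeR 0 of these 10734 genes passed, 303 (2.82%) had an unadjusted p under 0.05, and DESeq2 called 39 (0.363%). For 4 of the 5 genes other than Enpp2 the authors' deposited table gave q-values under 0.05 (Col8a1 was at 0.131), as for 53.1% of its genes.

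Markers of other cell types also differed in this table. Myelin genes summed to 5407 and 5172 CPM in tTA::miR132, against 4241 and 4427 CPM in controls, with 6 of 10 genes above 0 and a median of 0.25. Of these 10 genes, 6 were higher without overlap and 1 was lower without overlap. Oligodendrocytes also express Enpp2, and their part in its level was not tested. Hippocampal neuron genes summed to 8302 and 8536 CPM in tTA::miR132, against 9154 and 8799 CPM in controls, without overlap, with 6 of 10 below 0 and a median of -0.16. Haemoglobin genes summed to 24.8 and 20.8 CPM in tTA::miR132, against 27.7 and 36.0 CPM in controls, also without overlap. Vessel genes had 7 of 8 below 0 and a median of -0.68, which turned to 2 of 8 and 0.30 without control library 2. The sums of the astrocyte, ependymal, meningeal and thalamic lists overlapped between the groups. No gene of these lists passed edgeR's test, and the part of these differences in the levels of the 6 genes was not tested.

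The further choroid plexus genes lay on both sides of 0 in tTA::miR132. Of 28 with a row, 16 were below 0 (50.1% of all genes tested), 0 passed and the median was -0.03, or -0.35 to 0.47 when 1 library was left out. Igfbp2 had 115 and 84.7 CPM in tTA::miR132, against 119 and 136 CPM in controls, without overlap. The epithelial junction gene Cldn1 had 4.06 and 8.78 CPM in tTA::miR132, against 30.7 and 23.5 CPM in controls, and it was singled out after its values were seen. Of the 28, 6 were lower without overlap and 2, Slc4a5 and Sostdc1, were higher without overlap, against 14.3% lower and 18.8% higher of all genes tested. The bicarbonate transporter gene Slc4a5 had 14.9 and 10.3 CPM in tTA::miR132, against 2.42 and 3.25 CPM in controls (log2 fold change 2.10, SE 1.89). Sostdc1, which encodes a secreted inhibitor of BMP signalling, had 18.6 and 23.5 CPM in tTA::miR132, against 15.8 and 3.49 CPM in controls (log2 fold change 1.10, SE 1.06). The levels of Prlr overlapped, with 43.5 and 59.5 CPM in tTA::miR132 and 49.3 and 24.3 CPM in controls.

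**Figure D3:**
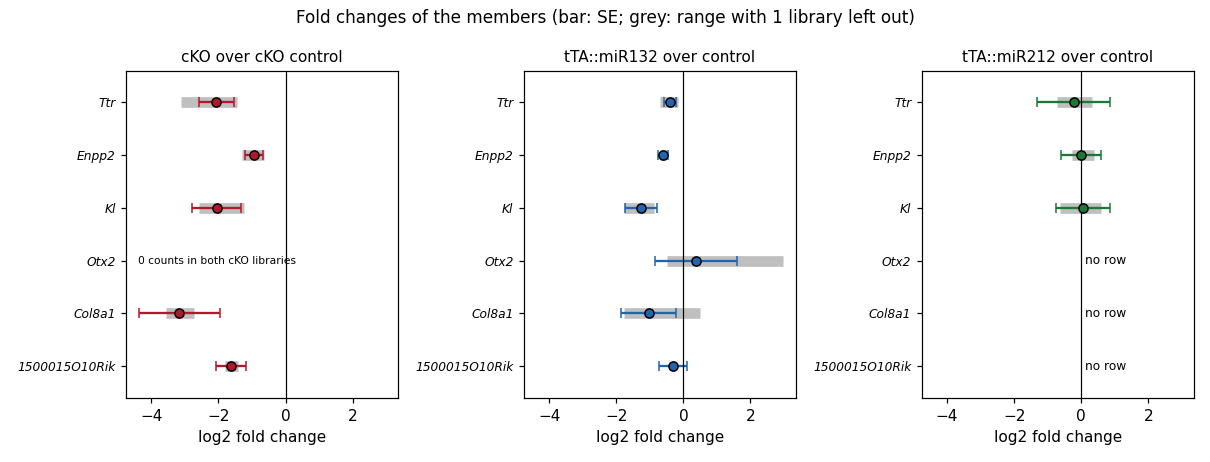
Log2 fold changes (edgeR, x axis) of the 6 genes against their controls, with the standard error (thin bar) and the range when 1 library is left out (grey). In cKO each estimate and its range lie below 0 (Otx2, with 0 counts in both cKO libraries, is not drawn), and in tTA::miR212 the 3 ranges cross 0. The genes were chosen by the cKO contrast, so their side of 0 there is no check.

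In the miR-212 table the 3 genes differed more within groups than between them. Ttr had 800, 40.1 and 670 CPM in tTA::miR212 libraries 1, 2 and 3, against 782, 710 and 262 CPM in their controls. Transgenic library 2 was lowest, control library 3 next, and the other 4 lay between 670 and 800 CPM. The 40.1 CPM in transgenic library 2 came from 62 counts, with an exact 95% Clopper-Pearson interval of 30.8 to 51.4 CPM that covers counting error only. Between the groups Ttr differed by a log2 fold change of -0.23 (SE 1.08, with edgeR adjusted p = 0.992), which turned to 0.33 without transgenic library 2.

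Enpp2 had 569, 172 and 547 CPM in tTA::miR212, against 572, 463 and 252 CPM in controls. The same 2 libraries were lowest, and the groups overlapped. Its log2 fold change was -0.01 (SE 0.60) at an edgeR adjusted p of 0.998, with a 95% interval of -1.19 to 1.17, and it was 0.38 without transgenic library 2.

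Kl had 52.1, 7.77 and 78.9 CPM in tTA::miR212, against 58.1, 53.9 and 19.7 CPM in controls. Once more transgenic library 2 (12 counts, interval 4.01 to 13.6 CPM) and control library 3 (26 counts, 12.9 to 28.9 CPM) were lowest. For Kl the groups differed by 0.06 on the log2 scale (SE 0.81; edgeR, adjusted p = 0.996), and by -0.62 without transgenic library 3 and -0.29 without control library 3. The pooled level of the 3 genes was 1420, 219 and 1296 CPM in tTA::miR212, against 1412, 1227 and 534 CPM in controls.

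Over the 3 genes, 2 were below 0 (48.9% of all 4618 genes tested were) and 1 above, and 0 had groups that did not overlap and were lower, against 4.96% of all genes. Leaving out transgenic library 2 or control library 1 put 0 of the 3 below 0, and leaving out transgenic library 1, transgenic library 3 or control library 3 put all 3 below 0. By edgeR 0 of the 4618 genes passed, 260 (5.63%) had an unadjusted p under 0.05, and DESeq2 called 0. For 0 of the 3 the authors' deposited table gave q-values under 0.05, and it did so for 0.0866% of its genes.

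The spread of the 3 genes among replicate libraries was high for that table. Among 4618 genes, the within-group SD of log2(CPM + 1) was 1.81 for Ttr (3rd), 1.34 for Kl (4th) and 0.82 for Enpp2 (9th), against a median of 0.13. The genes above Ttr were Xist and Tsix, transcripts of the X-inactivation centre, and Fos, Npas4, Nr4a1 and Junb, genes induced by neuronal activity, stood beside them in the first 10. In the deletion table the within-group SD of Ttr was 0.88, ranking 3142 of 10429, and in the miR-132 table it was 0.34, ranking 6525 of 10486. The proportions also moved in transgenic library 2, which had 427 Enpp2 counts per 100 Ttr counts, against 65.3 to 96.2 in the other 5 libraries, and 19.4 Kl counts per 100 Ttr counts, against 6.52 to 11.8.

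Markers of neighbouring tissue in these 6 libraries were as follows. The 3 thalamic genes with a row summed to 152, 280 and 180 CPM in tTA::miR212, against 174, 136 and 150 CPM in controls. Transgenic library 2 was highest for them and lowest for the choroid plexus genes. The 3 further choroid plexus genes with a row were Igf2, Igfbp2 and Atp2b3. They summed to 498, 422 and 571 CPM in tTA::miR212, against 524, 493 and 395 CPM in controls. Control library 3 was lowest and transgenic library 2 next, and that transgenic library lay below every control for 1 of the 3 genes. Myelin, astrocyte and hippocampal neuron lists summed to 6572 to 7196, 6590 to 8613 and 9396 to 10490 CPM over the 6 libraries. The part of tissue composition in the spread of Ttr was not tested.

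**Figure D4:**
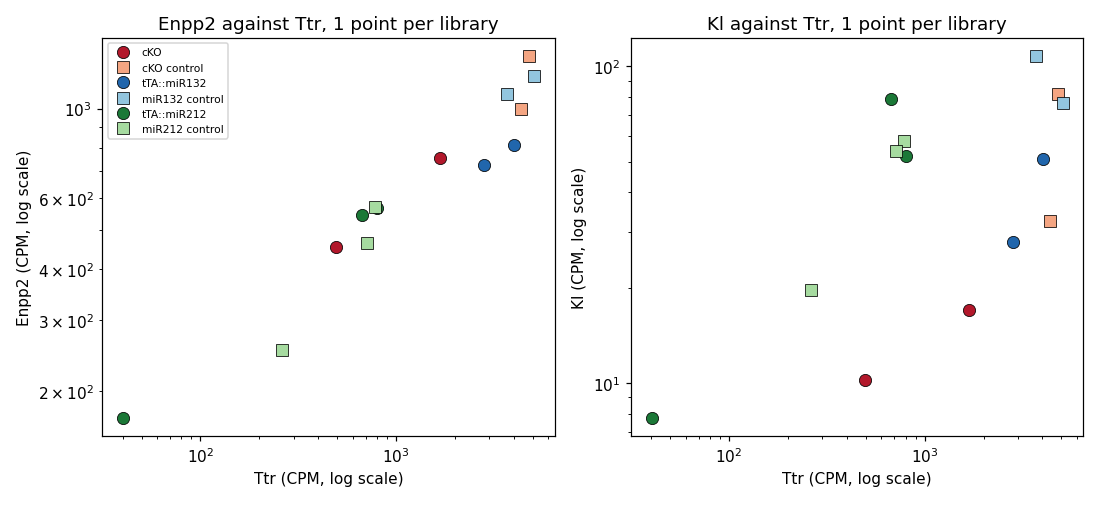
Enpp2 (left) and Kl (right) against Ttr in each of the 14 libraries (1 point each, log axes in CPM), by group. The tTA::miR212 library with 40.1 CPM of Ttr is lowest for both genes, and cKO libraries lie below their controls on both axes.

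Ttr, Enpp2 and Kl, the 3 members with a row in every table, were compared across libraries. Over the 14 libraries, with each gene taken as log2(CPM + 1) minus its mean in the table, Enpp2 (Pearson r = 0.94, Spearman rho = 0.92) and Kl (r = 0.89, rho = 0.78) were the 2 genes most like Ttr of 4149 compared. Without the 2 libraries farthest from the median of Ttr, tTA::miR212 library 2 and cKO library 1, r was 0.90 for Enpp2 and 0.80 for Kl. These values include the deletion libraries, whose difference chose the genes. The 10 libraries of the other tables were taken as a set after seeing the data. They include those of tTA::miR132 and its controls, whose difference also chose Enpp2. Over these 10, r was 0.93 for Enpp2 (rho = 0.94) and 0.89 for Kl (rho = 0.66). Without tTA::miR212 libraries 2 and 1, the 2 farthest from the median of Ttr there, r was 0.89 for Enpp2 and 0.80 for Kl. For this set and for the 14 libraries, the table means still included the libraries left out, so part of their influence stayed. Control library 3 of the miR-212 table, low for all 3 genes, stayed in as well. Next to Enpp2 and Kl over the 14 libraries came Asns (0.78), Nfix (0.71), Dkk3 (0.71), Stk39 (0.71), Kif5a (0.70), Rap2a (0.70), Igfbp2 (0.69) and Plk2 (0.68). Of these, Igfbp2 is on the list of further choroid plexus genes. The points share libraries and group differences, so these are descriptions with no test. In the miR-132 table Ttr was highest in control library 1 and lowest in transgenic library 2, and the other members did not keep its order. Col8a1, Kl and 1500015O10Rik were highest in control library 2, and Otx2 was lowest there. Enpp2 had the same highest and lowest libraries as Ttr, with the 2 between in the other order.

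Within the 6 libraries of the miR-212 table alone, the genes most like Ttr included Atp5e (r = 0.97), Kl (0.96), Enpp2 (0.95) and Ajap1 (0.95), and those most opposite were Calcoco1 (-0.97), Ddr1 (-0.97), Mtap7d2 (-0.96), Zmym2 (-0.96) and Rab3gap1 (-0.95). For Enpp2 and Kl this rests on transgenic library 2 and control library 3: without both, r was 0.50 for Enpp2 and -0.75 for Kl over 4 libraries.

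Set side by side over the 6 groups, and with the tables counted separately, mean Ttr was 503 CPM in tTA::miR212, 585 in miR212 controls, 1089 in cKO, 3425 in tTA::miR132, 4407 in miR132 controls and 4565 in cKO controls. CPM is not on 1 scale across the tables. In the miR-212 table it is taken over 1 transcript row for each of 4618 symbols, against 10541 and 10799 symbols in the others. The order of groups from different tables is therefore not read as a difference in level. Among neighbours in that order, only cKO and tTA::miR132 had ranges that did not overlap. Enpp2 had the same order, and its only neighbours without overlap were tTA::miR132 and the miR132 controls. For Kl the lowest mean was 13.6 CPM in cKO, separate from its neighbour tTA::miR132 at 39.4 CPM, and the highest was 92.03 CPM in miR132 controls. The range of Kl in tTA::miR212, 7.77 to 78.9 CPM, covered that of cKO. For Otx2, Col8a1 and 1500015O10Rik, cKO was also the lowest of 4 groups and separate from the next. The 6 genes were chosen by their lower counts in cKO, so nothing is read from the place of cKO in these orders.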

How the data were processed

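Polyadenylated hippocampal RNA was sequenced, and per the submitters' processing notes and the series' design text reads were aligned to mm9 with Bowtie 0.12.7. The authors deposited raw counts per gene (deletion and miR-132 tables) or per transcript (miR-212 table), with q-values of their own tests per the file headers. The sources used here do not give the counting tool, its use of strand or the filter behind the tables, and 14 deposited normalized columns were not used. A single row per symbol was kept in the miR-212 table, that with the highest mean count. CPM is counts per 1000000 of a library's counts over kept rows. Each table was fitted alone with edgeR 4.0.16 in R 4.3.3 (TMM, filterByExpr, robust quasi-likelihood test, Benjamini-Hochberg adjustment over all genes tested), after a check on simulated counts. DESeq2 1.42.0, raw library totals, no filter, a replicate block, left-out libraries and other totals were tried. Levels per kilobase use the longest GENCODE vM1 transcript. Genes most like Ttr were the 10 highest in Pearson r among those with a mean of at least 5 CPM in each table, and the 5 highest and 5 lowest in the miR-212 table, of which 1 is not reported here; each marker list gives counts or sums, with up to 5 of its most abundant genes named. Kcne2, Folr1, Cldn1, Slc4a5 and Sostdc1 were named after their values were seen. The 6 genes and all marker lists were chosen with earlier results of these data known: the deletion contrast for all 6 genes, and Enpp2 in tTA::miR132. No p or q is therefore given for the 6 genes in the deletion, nor for Enpp2 in tTA::miR132.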

Additional observations from a re-analysis of the deposited data

How the results depend on the processing

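The 6 genes stayed below 0 in cKO under each alternative run. They were chosen by this contrast, and for each of them both cKO libraries lay below both controls. Leaving out 1 library could therefore hardly turn a sign, and nothing is read from this. Over the settings that leave out no library, fold changes of the 6 genes in tTA::miR132 and tTA::miR212 kept their direction, except that of Kl in tTA::miR212 with a replicate block, and none of those tested crossed the threshold. By DESeq2, 5 genes passed in cKO and 39 in tTA::miR132, against 0 each by edgeR. Enpp2 in tTA::miR132, given with no test, stood at -0.62 by DESeq2 too. Libraries with the same number did not deviate together (r = 0.023 in the deletion table, 0.015 in the miR-132 table and -0.076 to 0.021 in the miR-212 table), so the numbers are not taken as pairs. With a replicate block, 1 gene passed in tTA::miR132 and 1 in tTA::miR212, and Kl in tTA::miR212 turned to -0.07, which put 3 of the 3 genes below 0. With 1 library left out, in which case a lone library is assumed to vary like the others, the number of genes that passed ranged over 1 to 4527 in cKO (4527 without cKO library 2), 0 to 111 in tTA::miR132 (111 without control library 1) and 0 to 18 in tTA::miR212 (18 without transgenic library 1). Log2 fold changes in cKO ranged over -3.13 to -1.45 for Ttr, -1.30 to -0.65 for Enpp2, -2.57 to -1.24 for Kl, -3.58 to -2.74 for Col8a1 and -1.81 to -1.42 for 1500015O10Rik, and the bound for Otx2 over 41.3 to 85.6. In tTA::miR132 they ranged over -0.69 to -0.16 for Ttr, -0.71 to -0.52 for Enpp2, -1.78 to -0.89 for Kl, -0.49 to 2.98 for Otx2, -1.76 to 0.50 for Col8a1 and -0.35 to -0.26 for 1500015O10Rik. In tTA::miR212 they ranged over -0.73 to 0.33 for Ttr, -0.28 to 0.38 for Enpp2 and -0.62 to 0.58 for Kl, and 0 to 3 of the 3 genes were below 0. The causes were not tested. With 2 or 3 libraries a group, differences of the size seen in tTA::miR132 did not pass edgeR's adjustment, and counts of 12 to 62 limit Kl and Ttr in tTA::miR212 library 2.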
